A study of Homo sapiens with 6 samples.

Results

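Deoxynucleotides, the building blocks of DNA, are made and cleared by a small group of enzymes, and 9 of their genes are described here: RRM1, RRM2, RRM2B, TYMS, TK1, DUT, DTYMK, DCK and SAMHD1. They were chosen by name, with earlier results of these data known. Each was matched to array features annotated with exactly 1 gene symbol, taking the feature with the highest mean where a gene had several. All 9 were measured, among 16704 genes tested. The cells were LNCaP, an androgen-responsive human prostate cancer line, grown as stable clones selected by neomycin resistance. The 3 control clones carried a scrambled short hairpin RNA and the 3 knockdown clones one directed at MBD2, which binds methylated CpG sites, both in the siLentGene-2 vector. Cytoplasmic RNA of each clone was hybridised to 1 Affymetrix human gene array, which reports a log2 expression value per gene feature. Each clone was taken as 1 replicate of its group, so differences between clones of 1 group are part of the error.

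Ribonucleotide reductase converts ribonucleoside diphosphates to deoxyribonucleoside diphosphates and is the rate-limiting step of the de novo route. TYMS makes thymidylate from dUMP, DUT hydrolyses dUTP to dUMP, and DTYMK phosphorylates thymidylate towards dTTP. TK1 and DCK return deoxynucleosides to the pool by salvage, while SAMHD1 hydrolyses deoxynucleoside triphosphates. Several of these genes, RRM2, TYMS and TK1 among them, are known for high expression in S phase, and RRM2B for induction by p53.

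Promoter sequence was read from RefSeq (GRCh38.p14), because cell cycle genes often carry CCAAT boxes, E2F sites or CHR elements close to their start. Of the 9 genes 8 matched, with 13 listed starts. The 250 bases before each start were searched on both strands for CCAAT, for the E2F words TTTCCCGC, TTTCGCGC, TTTGCCGC and TTTGGCGC, and for the CHR words TTTGAA and TTCGAA. No matches overlapped, windows of 1 gene can share sequence, and a match is only a description of the letters. CCAAT was found for RRM1, RRM2, TK1, DTYMK and SAMHD1, in 6 of 13 windows against 32.0% of all 35116 windows. An E2F word was found for TYMS and DUT, in 2 of 13 windows against 2.79% of all. A CHR word was found for RRM1, DUT and DTYMK, in 3 of 13 windows against 14.3% of all. Counted by gene, CCAAT, E2F and CHR words were found for 5, 2 and 3 of the 8, against 37.0%, 3.4% and 17.2% of all 27305 genes. DCK had none of these words in its window.

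The stretches below show the matches in capitals, 5′ to 3′ on the strand of the gene. RRM2 is shown for its 3 CCAAT boxes, TYMS and DUT for their E2F words, TK1 for 2 CCAAT boxes on the opposite strand, RRM1 as the partner subunit of RRM2, and DTYMK for a CCAAT box next to a CHR word.
RRM2, chr2:10122608-10122628, + strand: aggcgcagCCAATgggaaggg
RRM2, chr2:10122638-10122658, + strand: tggcacagCCAATgggaaggg
RRM2, chr2:10122665-10122685, + strand: caccaaagCCAATgggaaggg
RRM1, chr11:4094535-4094684, + strand: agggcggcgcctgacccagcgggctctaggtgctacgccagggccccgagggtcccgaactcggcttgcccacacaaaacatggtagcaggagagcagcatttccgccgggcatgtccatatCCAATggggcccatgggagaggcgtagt
TYMS, chr18:657503-657652, + strand: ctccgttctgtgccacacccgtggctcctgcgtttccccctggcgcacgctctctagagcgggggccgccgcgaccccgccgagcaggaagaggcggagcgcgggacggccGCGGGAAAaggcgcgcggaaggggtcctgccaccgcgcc
DUT, chr15:48332152-48332180, + strand: ctgGCGGGAAAtttcggtTTTGGCGCgct
TK1, chr17:78187117-78187137, - strand: gggcgctgATTGGccccatgg
TK1, chr17:78187086-78187106, - strand: ggctcgtgATTGGccagcacg
DTYMK, chr2:241686816-241686965, - strand: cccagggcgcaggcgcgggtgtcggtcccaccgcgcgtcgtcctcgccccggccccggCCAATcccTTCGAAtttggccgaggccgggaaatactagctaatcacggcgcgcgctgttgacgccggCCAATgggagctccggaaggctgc

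The 3 stretches of RRM2 share a run of 15 bases, agccaatgggaaggg. That run occurs 3 times in 1 of the 35116 windows, the one of RRM2, and at least once in 2 windows. For TYMS the E2F word lies 39 to 32 bases before the listed start, and for DUT the words lie 42 to 35 and 27 to 20 bases before the last of its 4 listed starts.

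**Figure D1:**
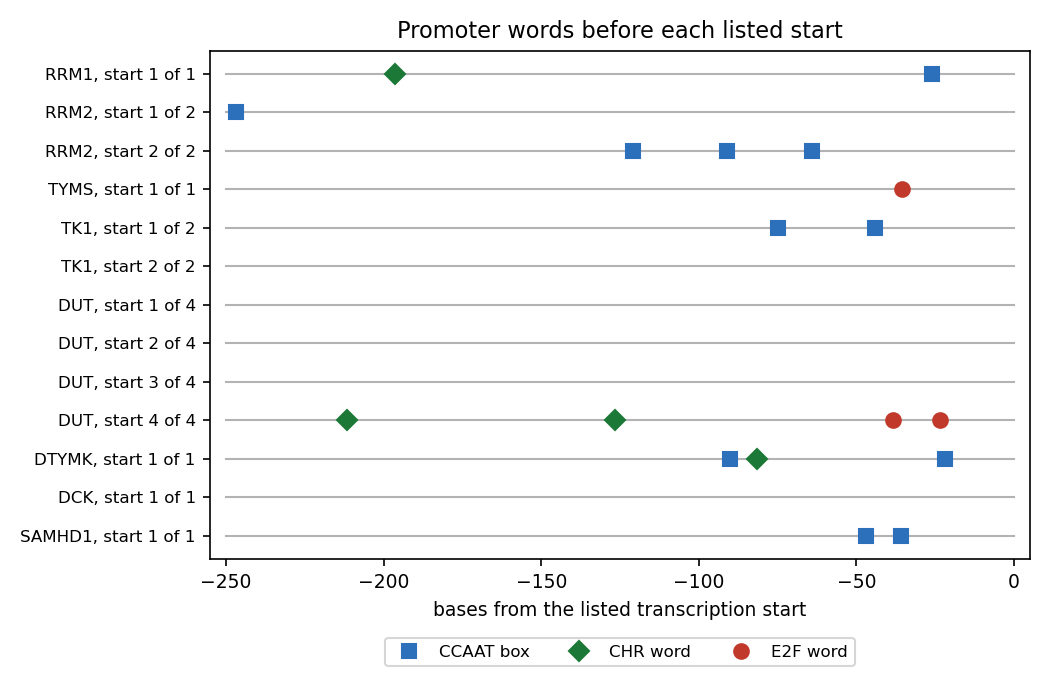
Each line is the 250 bases before 1 listed RefSeq start of a gene, with the horizontal axis in bases from that start and symbols at each CCAAT box (squares), E2F word (circles) and CHR word (diamonds). The second start of RRM2 has 3 CCAAT boxes, the last start of DUT has 2 E2F words, and DCK has no symbol.

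The comparison asks which genes differ when MBD2 is reduced. MBD2 itself was at 41.2% of the control level, with an adjusted p of 0.112 by limma, which is not under 0.05. It measured 8.73, 9.24 and 9.20 in the controls (log2, clones 1 to 3) against 7.68, 7.84 and 7.81 after knockdown, so depletion was of like size in the 3 clones. Array medians lay between 6.31 and 6.33, and values spread less over genes in knockdown clone 1 (SD 2.00) than on the other arrays (2.05 to 2.07). Deviations from each gene's median over the arrays spread more in knockdown clone 1 (interquartile range 0.227) than on the others (0.127 to 0.155). Readings of clone 1 are for this reason taken with more caution. Whether the spread comes from the measurement or from the clone itself was not tested. The control means of all 9 enzyme genes lay above every array's median. Of the luminal markers 6 were measured, KLK2, KLK3, HOXB13, KRT8, KRT18 and STEAP2, with control means between 8.54 and 10.82. Haematopoietic markers lay between 2.58 and 6.30, with the leukocyte gene PTPRC lowest, basal epithelial markers between 3.28 and 5.53, and stromal markers between 2.39 and 9.28, with VIM highest.

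Because the 9 genes were chosen with earlier results of these data known, the shares below only describe them, and no set test was run. Of the 9 genes, 8 had a lower mean in the knockdown clones and 1, RRM2B, a slightly higher one, where 51.3% of all genes had a lower mean. The median log2 fold change of the 9 was -0.27, against -0.0043 over all genes tested. None was past the threshold: with limma 0 of the 9 and 0 of 16704 genes (0%) had an adjusted p under 0.05, while 1568 genes had an unadjusted p under 0.05. At an unadjusted p under 0.05, 4 of the 9 were lower (RRM2, DCK, RRM1 and TYMS), where 5.45% of all genes were, and 0 of the 9 were higher, where 3.93% of all genes were. In 5 of the 9 (RRM1, RRM2, DUT, DTYMK and DCK) all knockdown clones lay below all control clones, as they did in 8.87% of all genes tested, and in 0 of the 9 all lay above, against 6.57% of all genes. After quantile normalization or cyclic loess that held for 3 (RRM1, RRM2 and DCK), against 7.25% and 7.30% of all genes. Genes of like brightness, with control means from 7.17 to 9.97, were lower more often than all genes. Of 5581 such genes 66.4% had a lower mean, 14.9% lay below all controls in every knockdown clone, and their median was -0.06. At an unadjusted limma p under 0.05, 9.14% of them were lower. In knockdown clone 1 their median deviation from the control mean was -0.058, against 0.029 over all genes. RNA was taken from whole cultures, so fewer cells in S phase and less RNA per cell cannot be told apart.

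**Figure D2:**
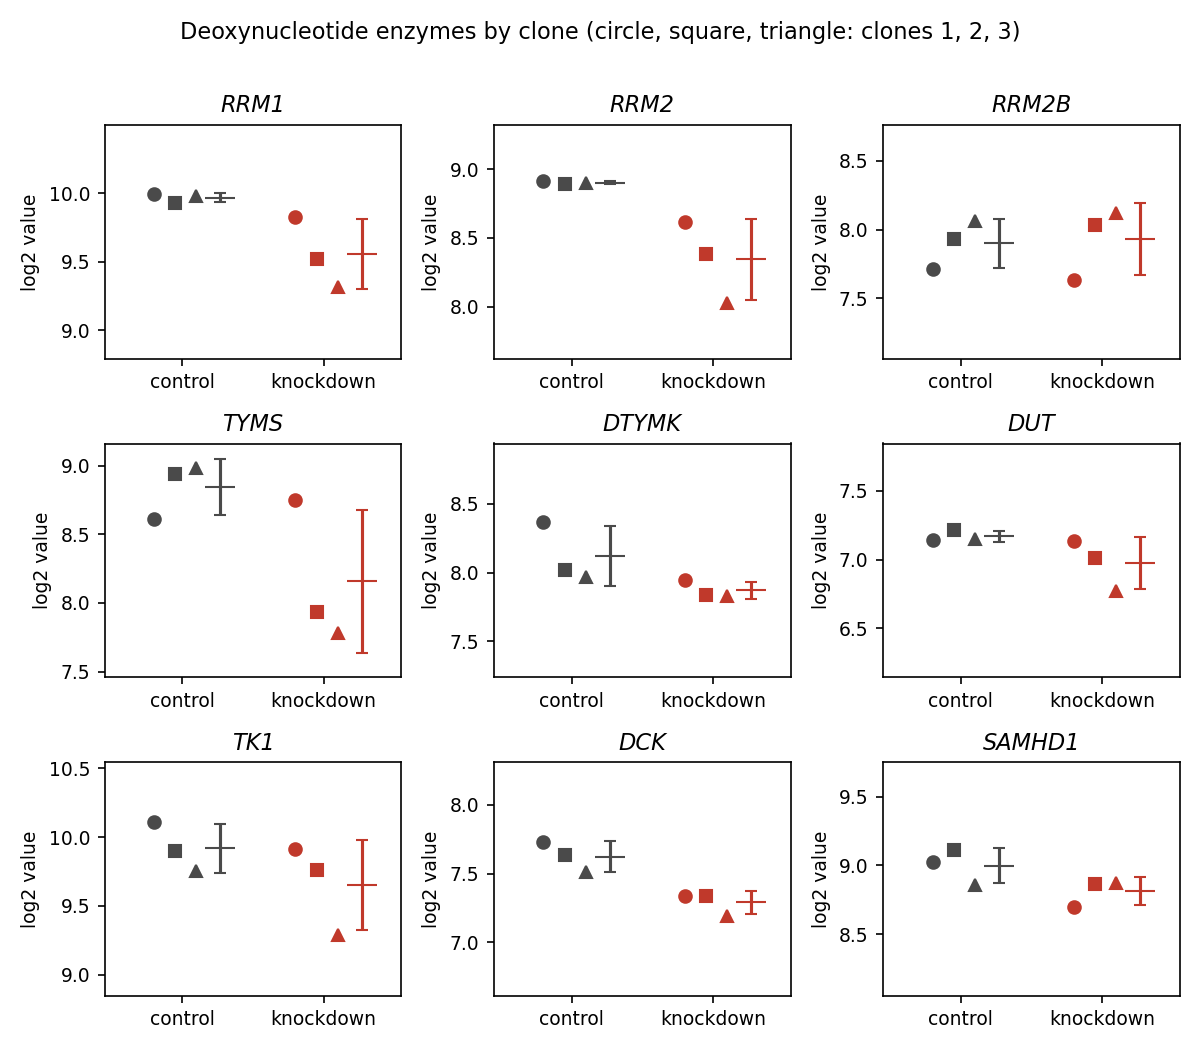
Each panel plots the log2 value of 1 gene (vertical axis, the same span in every panel) in the 3 control clones (grey) and 3 knockdown clones (red), with the mean and SD of each group beside the points. RRM2 is tight in the controls and lower in every knockdown clone, TYMS is low in knockdown clones 2 and 3 only, and the groups of RRM2B overlap.

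RRM2 encodes the small subunit of ribonucleotide reductase that is made and destroyed with each cell cycle. The controls read 8.92, 8.89 and 8.90 (log2, clones 1 to 3) and the knockdown clones 8.62, 8.38 and 8.03, in the same order. All knockdown clones lay below the controls, and the controls were nearly level (SD 0.0115). The log2 fold change was -0.56 (SE 0.14, 95% confidence interval -0.89 to -0.22), a level 67.9% of the control, with an adjusted p of 0.326 by limma. Permuting the clones exactly (two-sided) gave p = 0.1, below which 3 clones against 3 cannot go.

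RRM1 encodes the large subunit, which holds the catalytic and the regulatory sites and is more stable through the cycle than RRM2. Its log2 value was 9.99, 9.93 and 9.98 in the control clones and 9.83, 9.52 and 9.32 in the knockdown clones. The groups did not overlap, with knockdown clone 1 nearest to the controls. The log2 fold change was -0.41 (SE 0.13, limma adjusted p = 0.398). RRM2 minus RRM1, each relative to its control mean, was -0.14, -0.08 and -0.23 in knockdown clones 1 to 3, a mean of -0.15 on the log2 scale (exact two-sided permutation p = 0.1, and 0.2 adjusted over the 2 subunit differences computed).

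RRM2B encodes the other small subunit, p53R2, which serves DNA repair and mitochondrial DNA outside S phase. RRM2B stood at 7.71, 7.93 and 8.06 in the control clones and 7.63, 8.03 and 8.12 in the knockdown clones. The groups overlapped fully, with 1 low clone in each. RRM2B had a log2 fold change of 0.03 with a 95% confidence interval of -0.32 to 0.38 (limma adjusted p = 0.973), and its sign turned when control clone 1, knockdown clone 2 or knockdown clone 3 was left out. The log2 fold changes of RRM2 and RRM2B differed by -0.59, but by clone the difference was -0.01, -0.65 and -1.10 (knockdown clones 1 to 3) against -0.17 to 0.20 in the controls (exact two-sided permutation p = 0.3, and 0.3 adjusted over the 2). Clone 1 thus showed no gap between these small subunits.

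**Figure D3:**
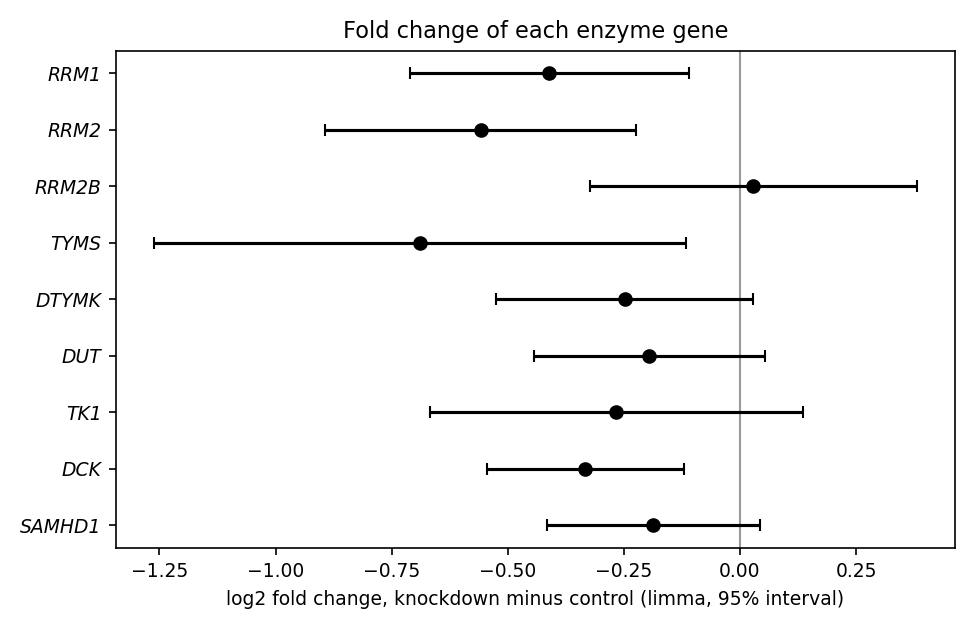
Points are the log2 fold changes of the 9 genes, knockdown minus control, on the horizontal axis, and bars their 95% confidence intervals from the limma fit with 3 clones a group. The unadjusted intervals of RRM1, RRM2, TYMS and DCK lie below 0, and that of RRM2B runs from -0.32 to 0.38.

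On the thymidylate branch, TYMS, the target of 5-fluorouracil, had the lowest fold change of the 9 genes. TYMS stood at 8.61, 8.94 and 8.98 in the control clones and 8.75, 7.94 and 7.78 in the knockdown clones. Knockdown clone 1 lay within the control range, while clones 2 and 3 lay 0.91 and 1.06 below the control mean. TYMS had a log2 fold change of -0.69 (SE 0.25, limma adjusted p = 0.447), a level 62.0% of the control. Permuting all clones exactly (two-sided) gave p = 0.2 for TYMS. Without knockdown clone 1 TYMS passed the threshold (log2 fold change -0.98, limma adjusted p = 0.0498), as 1 of 70 genes that did so among all 16704. That fit rests on knockdown clones 2 and 3, and these had the smallest difference of any pair of arrays (SD over genes 0.185).

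DUT encodes the dUTPase that keeps uracil out of DNA. Its log2 value was 7.14, 7.22 and 7.15 in the control clones and 7.139, 7.01 and 6.77 in the knockdown clones. Knockdown clone 1 lay only 0.0024 below the lowest control, so the lack of overlap rests on a very small gap. DUT had a log2 fold change of -0.19 (SE 0.11, limma adjusted p = 0.634), and -0.09 without knockdown clone 3. After quantile normalization clone 1 stood 0.05 above the control mean.

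DTYMK encodes thymidylate kinase, where the de novo and salvage routes to dTTP meet. It has 2 features with identical values, of which 1 was used. Its log2 value was 8.37, 8.02 and 7.97 in the control clones and 7.94, 7.84 and 7.83 in the knockdown clones. The knockdown clones were alike, and the spread lay in the controls, where clone 1 stood highest. The log2 fold change was -0.25 (SE 0.12, limma adjusted p = 0.578), and -0.12 without control clone 1.

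TK1 encodes the cytosolic thymidine kinase, a salvage enzyme used as a proliferation marker. TK1 stood at 10.11, 9.90 and 9.75 in the control clones and 9.91, 9.76 and 9.29 in the knockdown clones. Knockdown clones 1 and 2 lay inside the control range and clone 3 below it. TK1 had a log2 fold change of -0.27 (SE 0.17, limma adjusted p = 0.693), and it was -0.08 without knockdown clone 3.

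DCK encodes deoxycytidine kinase, which phosphorylates deoxycytidine, deoxyadenosine and deoxyguanosine and activates drugs such as cytarabine and gemcitabine. DCK stood at 7.73, 7.64 and 7.51 in the control clones and 7.34, 7.34 and 7.20 in the knockdown clones. The groups did not overlap, and in contrast to TYMS the clones 1 and 2 were level. The log2 fold change was -0.33 (SE 0.09, 95% confidence interval -0.55 to -0.12, limma adjusted p = 0.338), with a range of -0.39 to -0.28 when each clone was left out in turn.

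SAMHD1 hydrolyses the deoxynucleoside triphosphates that DNA polymerases use, and it is known as a barrier to retroviruses in myeloid cells. Its log2 value was 9.03, 9.11 and 8.86 in the control clones and 8.69, 8.87 and 8.87 in the knockdown clones. Knockdown clones 2 and 3 stood level with control clone 3, and clone 1 was lowest. The log2 fold change was -0.19 (SE 0.10, limma adjusted p = 0.623).

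The knockdown clones did not share 1 pattern over the genes. In 7 of the 9 the lowest knockdown value was that of clone 3, and in RRM2B and SAMHD1 that of clone 1. Averaged over the 9 genes, knockdown clones 1 to 3 deviated from the control mean by -0.18, -0.31 and -0.47 on the log2 scale, and single control clones by -0.03 to 0.02. After quantile normalization these means were -0.12, -0.27 and -0.43. In clone 1 the genes that stood furthest from the control mean were SAMHD1 (-0.30), DCK and RRM2 (each -0.28) and RRM2B (-0.27), whereas TYMS (-0.10), DUT (-0.03) and TK1 (-0.01) were close to it. TK1 and DUT in clone 1 were above the control mean after quantile normalization and cyclic loess (TK1 by 0.02 and 0.04, DUT by 0.05 and 0.0050). In clone 3 TYMS (-1.06), RRM2 (-0.87), RRM1 (-0.65) and TK1 (-0.63) were the lowest, and RRM2B stood 0.22 above the control mean.

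**Figure D4:**
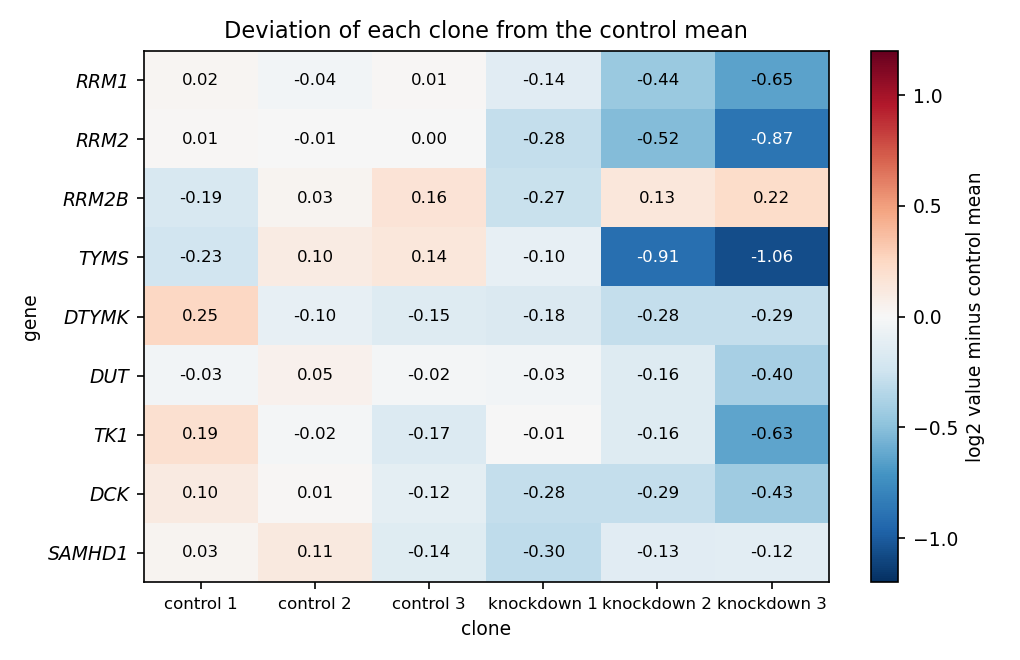
Rows are the 9 genes and columns the 6 clones, and each cell gives the log2 value minus the mean of the 3 control clones (blue lower, red higher). TYMS reaches -1.06 in knockdown clone 3 and -0.10 in clone 1, while DCK is between -0.43 and -0.28 in all knockdown clones.

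Over the 6 arrays, which include the difference between the groups and share each array's scaling, Pearson's r was between 0.66 and 0.99 for the 10 pairs among RRM1, RRM2, TYMS, TK1 and DUT. It was highest for RRM1 with RRM2. RRM2B had a negative r with 7 of the 8 other genes, between -0.77 and -0.40, and 0.14 with SAMHD1. SAMHD1 had r between 0.19 and 0.71 with the 7 others, the highest with DCK. Among 8351 other genes at or above the median brightness, the 3 most like RRM1 by Pearson's r over the 6 arrays were MRPL21, TUBA1B and POLD3, and those most like RRM2 were JADE2, SLC71A2 and the linker histone gene H1-2. For DCK they were VRK1, SUV39H2 and GAS2L3, and for TYMS they were MLLT1, TPGS2 and THRB. All of these r values were above 0.99, and all are the highest of many candidates over 6 points.

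Other genes of nucleotide metabolism stood closer to the control level. Of 29 measured genes of deoxynucleotide salvage, supply and breakdown outside the 9, 19 were lower and 10 higher (median -0.07 on the log2 scale), and 0 passed in either direction by limma. The knockdown clones lay below all controls in 5 of them (17.2%), against 8.87% of all genes and 14.9% of genes of like brightness. PNP, which splits purine nucleosides, had -0.39 (limma adjusted p = 0.387), and MTHFD1, a folate enzyme that feeds thymidylate and purine synthesis, had -0.36 (0.545). AK1, an adenylate kinase, had -0.16 (0.538), and the nucleoside diphosphate kinase gene NME6 had -0.27 (0.575). Of 19 genes of ribonucleotide synthesis 14 were lower with a median of -0.10, and 0 passed in either direction. ADSL and IMPDH2, of purine synthesis, had -0.26 and -0.22 (limma adjusted p = 0.468 and 0.499). ADSS1, which makes adenylosuccinate, had 0.50 (0.272), with all 3 knockdown clones above the controls, and PRPS1, which makes the activated ribose phosphate, had -0.22 (0.645).

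The means of the cell cycle lists were also lowest in knockdown clones 2 and 3, though not every gene followed them. In knockdown clones 1 to 3 TOP2A of the mitosis list read 8.32, 8.34 and 8.35, and TTK 7.04, 7.04 and 7.01. Of 44 replication and S phase genes 43 were lower with a median of -0.25, and their mean deviation was 0.04, -0.35 and -0.45 in knockdown clones 1 to 3, with controls from -0.11 to 0.07. Of 24 mitosis and G2/M genes 24 were lower with a median of -0.43, and their mean was -0.20, -0.48 and -0.60 against -0.07 to 0.08. None of either list passed by limma, where 0 genes of the whole table did. At an unadjusted limma p under 0.05, 19 of the 24 mitosis genes (79.2%) and 9 of the 44 S phase genes (20.5%) were lower, against 5.45% of all genes. Every knockdown clone read lower than each control for 17 mitosis genes (70.8%) and 9 S phase genes (20.5%), against 8.87% of all genes. The shares of the 9 enzyme genes, 44.4% and 55.6%, lay between those of these lists. PRIM2, a primase subunit, had -0.40 (limma adjusted p = 0.288) and CDC25A, a phosphatase of the G1/S step, had -0.47 (0.272). The mitotic kinesin gene KIF11 had -0.53 and the checkpoint kinase gene TTK had -0.48 (limma adjusted p = 0.229 for both). In clone 1 the mean was -0.18 for the 9 enzyme genes, -0.20 for the mitosis list and 0.04 for the S phase list. The enzyme mean joins unlike values, from -0.30 (SAMHD1) to -0.01 (TK1), and was -0.12 after quantile normalization. For the S phase and mitosis lists no rescaled means were computed. Whether the share of cycling cells has a part in the enzyme values was not tested. Of 20 p53 target genes, the class that RRM2B belongs to, 14 were lower with a median of -0.05. Their mean deviation was -0.11, -0.19 and -0.12 in knockdown clones 1 to 3, against -0.19 to 0.13 in the controls. Knockdown clone 2 lay at the lower edge of that range (-0.1915 against -0.1921). The p53 targets with the smallest p were EDA2R (-1.97, limma adjusted p = 0.435), TNFRSF10B (-0.17, 0.555) and GDF15 (0.36, 0.586). In GDF15 all knockdown clones lay above all controls. EDA2R stood at 4.49, 6.76 and 7.59 in the control clones (SD 1.61) and 4.43, 4.34 and 4.17 in the knockdown clones. Its control clone 1 was thus close to the knockdown level, and this widely spread gene is part of the list means.

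**Figure D5:**
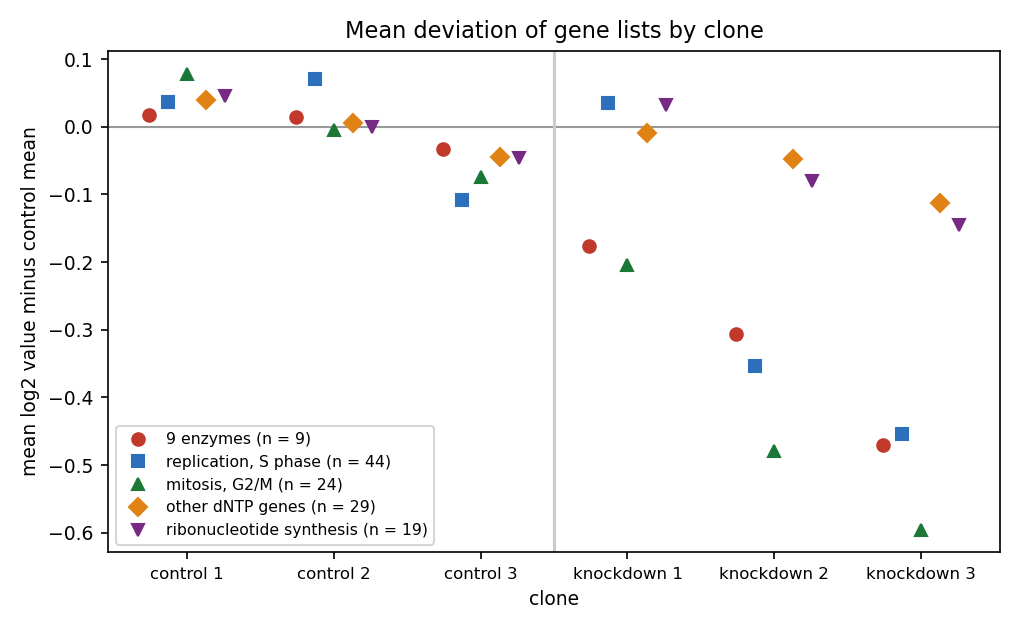
The vertical axis is the mean log2 value of a gene list minus its mean in the 3 control clones, for each clone on the horizontal axis, and symbols mark the lists with their number of measured genes. The 9 enzymes, the S phase genes and the mitosis genes all lie below -0.30 in knockdown clones 2 and 3, the other nucleotide genes lie between -0.15 and 0.05 throughout, and in clone 1 the S phase genes lie at 0.04.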

How the data were processed

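The deposited values are log2 expression per array feature for 6 arrays, which the authors obtained by RMA (background correction, normalization between arrays, summary of probes). The submitters' processing notes name RMA, oligo and limma. For these tools the version is not given in the sources used here. The log2 scale was taken from RMA and from the range of the values. Of 19712 features 17334 have 1 gene symbol, 1521 several and 857 none, and the brightest feature of each gene gave 16704 genes. The groups were compared in R 4.3.3 with limma 3.58.1 (lmFit, eBayes), without covariates, with Benjamini-Hochberg adjustment over all genes, after the fit was tested on simulated data. Adjusted p values in the text are limma's. Promoter words were searched in Python 3.11.15. Like genes are the 3 with the highest Pearson's r to a gene. Of each nucleotide, cell cycle and p53 list 2 to 4 genes with the smallest p are named, and marker lists are given by their range of levels. The members, lists and words were chosen with earlier results of these data known. Alternatives were the scaling, a filter on dim genes, the variance model, array weights, the replicate block, the features used and leaving out each clone. Counts of members under alternatives, and the per-clone values after rescaling, were added after seeing the data. The number of arrays limits the precision.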

Additional observations from a re-analysis of the deposited data

How the results depend on the processing

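With array weights (0.252 for knockdown clone 1, 3.43 for clone 2), the fit brought 325 of all 16704 genes past the threshold. Among them were RRM1, RRM2 and TYMS (limma adjusted p = 0.044, 0.0428 and 0.0311). Quantile normalization gave 1 gene, cyclic loess 1, and leaving out each clone in turn 0 to 70 genes, with 70 without knockdown clone 1 and 7 without control clone 1. An adjusted p under 0.1 gave 2 genes and an unadjusted p under 0.05 gave 1568. With the replicate number as a block 0 genes passed, and deviations of same-numbered clones correlated at -0.03, -0.19 and 0.17, so the numbers were not taken as pairs. RRM2B turned negative with knockdown clones 2 and 3 averaged (-0.0455) and ranged from -0.0682 to 0.1778 when each clone was left out. The median of the 9 genes was negative in each alternative run for it, from -0.36 to -0.21, and was not computed with knockdown clones 2 and 3 averaged. The other 8 genes kept their sign under all alternatives run. The number of enzyme genes lower at an unadjusted p under 0.05 was 3 to 6, while the share over all genes was 3.60% to 11.6%. It was 6 without knockdown clone 1 (9.12% of all genes), 6 with array weights (11.6%) and 6 with the block (5.48%).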
